A study of Mus musculus with 4 samples.

Results

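Polycomb group proteins are the chromatin regulators that keep developmental genes silent, and the genes of their complexes, with the 2 demethylases that remove their H3K27 mark, were followed here through TGFβ treatment of mouse mammary epithelial cells. The set held 35 genes named by symbol, and all 35 were found by Ensembl identifier among the 21971 gene rows of the count table. They were chosen by name, not by their values. All 35 passed the filter on low counts, and 34 of them had a mean of at least 1 CPM (a count scaled to library size), the exception being Phf19.

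NMuMG cells are epithelial, derive from the mammary gland of a normal mouse, and turn mesenchymal when given TGFβ (epithelial-to-mesenchymal transition, EMT), and the study asked how RNA of the telomeric TERRA type alters that transition. Ribosome-depleted RNA was sequenced from 4 libraries, 1 per group: cells expressing Vp16-TRF1ΔN given TGFβ (5 ng/ml) for 24 h, the same line at 0 h, cells expressing TRF1ΔN given TGFβ for 24 h, and that line at 0 h. Both lines stably carry a mutated human TRF1, a telomere-binding protein. In one it is fused to the viral Vp16 activation domain, which the series description links to more TERRA-like RNA. No group lacked a construct, none was at 24 h without TGFβ, and none had replicates, so time in culture and TGFβ cannot be told apart.

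The libraries held 35418985 to 45983910 counts on genes. The row named VP16 had 27 and 15 counts for Vp16-TRF1ΔN cells (24 h, then 0 h), against 1 and 0 counts in the TRF1ΔN line. The row named TRF1DN had 159 and 123 counts in Vp16-TRF1ΔN cells, against 7798 and 1863 counts in TRF1ΔN cells, so the deposited construct rows were unequal between the lines. Of 7 epithelial marker genes 5 had a row, and with TGFβ 3 rose (edgeR quasi-likelihood test over both lines): Krt8 by 0.30 and Krt18 by 0.56 on the log2 scale, both abundant, and Cldn4, with 152 and 563 counts at 24 h in Vp16-TRF1ΔN and TRF1ΔN cells, against 1 count in each at 0 h. Cdh1 fell by 1.46, and Epcam did not pass, with 4 to 18 counts. Of 5 basal mammary genes Acta2 rose, Krt5 and Krt6a fell, Krt14 did not pass and Trp63 was not tested. Their summed level, 3.27 and 30.7 CPM in the Vp16-TRF1ΔN line (24 h, then 0 h) and 5.61 and 55.4 CPM in the TRF1ΔN line, was at 0 h mostly that of Krt6a, at 28.3 and 52.1 CPM.

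Markers of other cell types were low with some exceptions. Of 3 immune genes with a row Ptprc and Lyz2 had at most 10 counts, whereas Cd68 had 110 to 150 counts. Of 4 endothelial genes Pecam1 and Tek had at most 3 counts, Flt1 had 1543 to 5179 counts and fell, and Cdh5 rose, with 24 and 50 counts at 24 h in Vp16-TRF1ΔN and TRF1ΔN cells, against 5 and 4 counts at 0 h. Of 3 adipocyte genes Adipoq and Fabp4 had at most 2 counts, and Pparg had 631 to 973 counts. All 3 tested of 5 fibroblast genes rose (Pdgfra, Pdgfrb and Col1a1), Dcn had at most 2 counts, and the summed level was 13.0 and 1.93 CPM in the Vp16-TRF1ΔN line (24 h, then 0 h) and 26.7 and 1.36 CPM in the TRF1ΔN line. The part of these lists in the results was not tested.

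Polycomb repressive complex 2 (PRC2) methylates histone H3 at K27. Its core is the enzyme Ezh2 or Ezh1 with Eed, Suz12 and the histone-binding proteins Rbbp4 and Rbbp7, and accessory proteins steer it to chromatin. Polycomb repressive complex 1 (PRC1) is built on the ubiquitin ligases Ring1 and Rnf2 and a Pcgf protein. Canonical PRC1 reads the H3K27 mark through a Cbx protein, and variant PRC1 holds Rybp or Yaf2. Kdm6a and Kdm6b take the methyl groups off H3K27, and Bap1 with Asxl1 takes ubiquitin off histone H2A.

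Levels per length spanned a wide range, as the plot of levels by library shows. Rbbp7 was the most abundant member, with a mean of 68.3 CPM per kilobase of exon over the 4 libraries, followed by Rbbp4 at 28.8, Yaf2 at 26.3, Bmi1 at 25.1 and Suz12 at 22.1 CPM per kilobase. The order of members close in level depends on the exon length used. Phf19 was the least abundant, at 0.101 CPM per kilobase, below Scmh1 at 0.561 and Cbx7 at 0.917 CPM per kilobase. Rbbp4 and Rbbp7 are also subunits of other chromatin complexes, so their level is not a measure of PRC2.

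**Figure D1:**
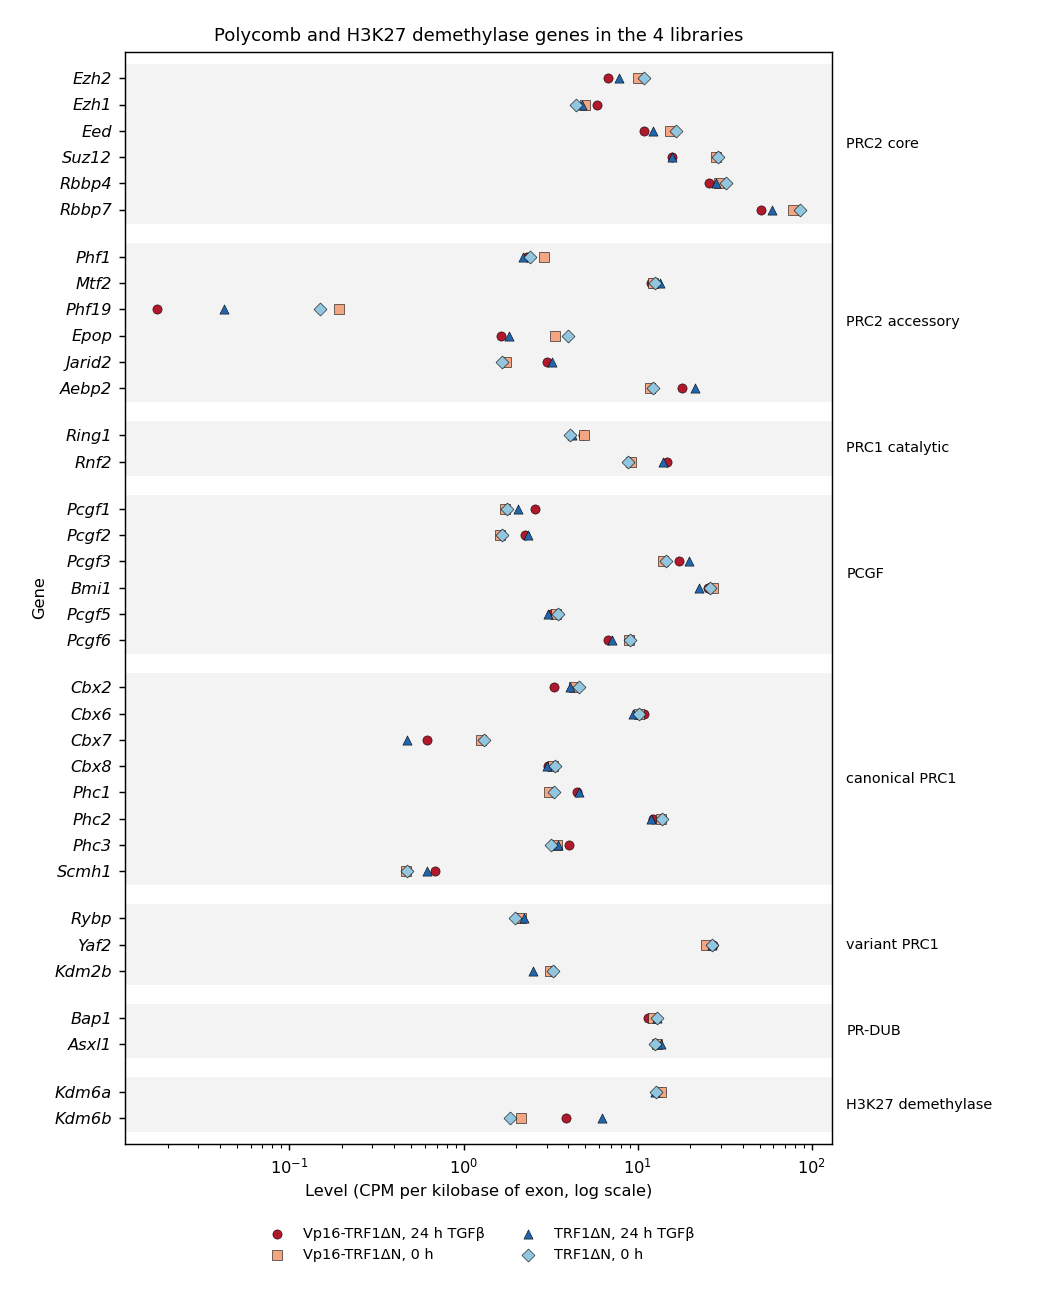
Level of each of the 35 genes (CPM per kilobase of exon, log scale) in the 4 libraries, 1 symbol per library, with genes grouped by role. Rbbp7 stands highest with a mean of 68.3 CPM per kilobase and Phf19 lowest with 0.101 CPM per kilobase.

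Of the 6 genes of the PRC2 core, 4 fell with TGFβ: Suz12, Rbbp7, Ezh2 and Eed. To test the change shared by the lines, edgeR's quasi-likelihood model was fitted with terms for line and time to the 14305 genes left by the filter on low counts, which gives 1 residual degree of freedom. Of all 35 members 7 rose and 8 fell at an adjusted p under 0.05, together 42.9% of them, whereas 23.1% of all genes tested rose and 25.4% fell, together 48.5%. The share called was thus near that of all genes and is no result about the set, and the median log2 change was -0.01 among the members and -0.01 among all genes tested. The size of the changes had a median of 0.28 among the members and 0.40 among all genes tested, on the log2 scale.

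Within the core 4 of 6 genes fell, against 25.4% of all genes tested, 2 did not pass and none rose, with a median log2 change of -0.50. Suz12, the zinc finger subunit that holds the complex together, had 2669 and 5959 counts (77.9 and 138 CPM) for Vp16-TRF1ΔN cells (24 h, then 0 h) and 3280 and 6841 counts (77.9 and 144 CPM) in the TRF1ΔN line. Both 24 h libraries lay well below both 0 h libraries and the lines were close to each other at each time, which the fit that called the gene favours. Suz12 fell by 0.85 on the log2 scale (SE 0.06, adjusted p = 0.00180, edgeR quasi-likelihood test), the largest fall in the core.

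The methyltransferase gene Ezh2 had 1553 and 2904 counts (45.3 and 67.4 CPM) for Vp16-TRF1ΔN cells (24 h, then 0 h) and 2188 and 3478 counts (52.0 and 73.0 CPM) in the TRF1ΔN line. It fell by 0.53 (SE 0.07, adjusted p = 0.00534). Eed, which binds the finished H3K27 mark and stimulates the enzyme, had 1419 and 2519 counts (41.4 and 58.4 CPM), and 1961 and 3022 counts (46.6 and 63.4 CPM), in the same order of line and time, and fell by 0.47 (SE 0.07, adjusted p = 0.00693). For both genes the 24 h and 0 h libraries did not overlap, which the fit that called them favours.

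Rbbp7 had 5103 and 9716 counts (149 and 225 CPM) for Vp16-TRF1ΔN cells (24 h, then 0 h) and 7255 and 11810 counts (172 and 248 CPM) in the TRF1ΔN line, and fell by 0.56 (SE 0.06, adjusted p = 0.00419). Its paralog Rbbp4 did not pass (log2 change -0.18 ± 0.06 SE, adjusted p = 0.0687), although it was lower at 24 h in both lines. Ezh1, the enzyme typical of cells that do not divide, had 1483 and 1606 counts (43.3 and 37.3 CPM), and 1501 and 1562 counts (35.7 and 32.8 CPM), in the same order. Its log2 change of 0.17 ± 0.07 SE did not pass (adjusted p = 0.128).

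Proliferation genes moved in the same direction as these genes. All 40 genes of a proliferation list fell (median log2 change -1.55, edgeR quasi-likelihood test), and their summed level was 2066 and 6554 CPM for Vp16-TRF1ΔN cells (24 h, then 0 h) and 2893 and 7178 CPM in the TRF1ΔN line. The part of proliferation in the PRC2 values was not tested. In bulk RNA, fewer cells that express a gene and less of its RNA per cell cannot be told apart.

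Because Ezh2 and Eed are known as targets of E2F factors, the promoters of the members were searched for the core E2F word TTTNNCGC on either strand, in RefSeq windows (GRCm38.p6) of 250 bases before to 50 bases after the annotated start. Of 29 members with a window 4 held the word: 3 of 7 that fell (Phf19, Ezh2 and Suz12), 0 of 6 that rose and 1 of 16 that did not pass (Asxl1). Eed, which with Ezh2 prompted the search, was not among these 4 genes. Some members had no window, so this does not by itself say that the Eed promoter lacks the word. Among all 26994 genes with a window 5.92% held it, as did 5.16% of the 32817 windows. The stretches around the word are shown for these 4 genes because they let the members be compared base by base. Capitals mark the word or its reverse complement, and each is written 5′ to 3′ on the strand of the gene.
Phf19, minus strand, chr2:34914135-34914216: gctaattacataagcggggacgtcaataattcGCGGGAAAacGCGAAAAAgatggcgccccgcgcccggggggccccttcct
Ezh2, minus strand, chr6:47595006-47595059: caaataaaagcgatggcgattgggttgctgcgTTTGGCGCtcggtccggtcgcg
Suz12, plus strand, chr11:79992856-79992926: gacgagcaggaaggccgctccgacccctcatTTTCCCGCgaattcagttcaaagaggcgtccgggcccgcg
Asxl1, plus strand, chr2:153345625-153345696: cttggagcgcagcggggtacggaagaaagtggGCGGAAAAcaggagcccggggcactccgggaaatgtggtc
The Phf19 stretch held the word 2 times, and that of Ezh2 began 4 bases into the transcript. A match is a description of letters, and binding was not measured here.

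Of the 6 genes of accessory proteins of PRC2 2 rose, 2 fell and 2 did not pass, whereas 23.1% of all genes tested rose and 25.4% fell. With so few genes these counts are no result about the group. Jarid2, which with Aebp2 marks the PRC2.2 form of the complex, had 1003 and 731 counts (29.3 and 17.0 CPM) for Vp16-TRF1ΔN cells (24 h, then 0 h) and 1324 and 766 counts (31.5 and 16.1 CPM) in the TRF1ΔN line, and rose by 0.88 ± 0.09 SE (log2, adjusted p = 0.00329). Aebp2 had 6086 and 5011 counts (178 and 116 CPM), and 8806 and 5765 counts (209 and 121 CPM), in the same order, and rose by 0.70 ± 0.08 SE (adjusted p = 0.00361). Both 24 h libraries exceeded both 0 h libraries for these genes, which the fit that called them favours.

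The members that fell belong to the PRC2.1 form. Epop, which links PRC2 to Elongin, had 130 and 335 counts (3.79 and 7.77 CPM) for Vp16-TRF1ΔN cells (24 h, then 0 h) and 177 and 437 counts (4.20 and 9.17 CPM) in the TRF1ΔN line, and fell by 1.08 (SE 0.14, adjusted p = 0.00523). Phf19, a Polycomb-like protein that recruits PRC2, was rare, with 3 and 42 counts (0.0875 and 0.974 CPM), and 9 and 36 counts (0.214 and 0.756 CPM), in the same order. Its ratio of 24 h to 0 h was 0.0898 in the Vp16-TRF1ΔN line (95% counting interval 0.0178 to 0.281) and 0.283 in the TRF1ΔN line (0.120 to 0.599), and it passed the test (adjusted p = 0.0174).

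The other Polycomb-like genes did not pass. Mtf2, the most abundant of the 3 with a mean of 12.5 CPM per kilobase, changed by 0.04 ± 0.07 SE on the log2 scale (adjusted p = 0.669). Phf1 changed by -0.24 ± 0.12 SE (adjusted p = 0.178). Of the exon bases of Phf1 39.3% overlap genes on the opposite strand, chiefly Cuta with up to 2362 counts, and with the strand setting not given its reads cannot be told apart from theirs.

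**Figure D2:**
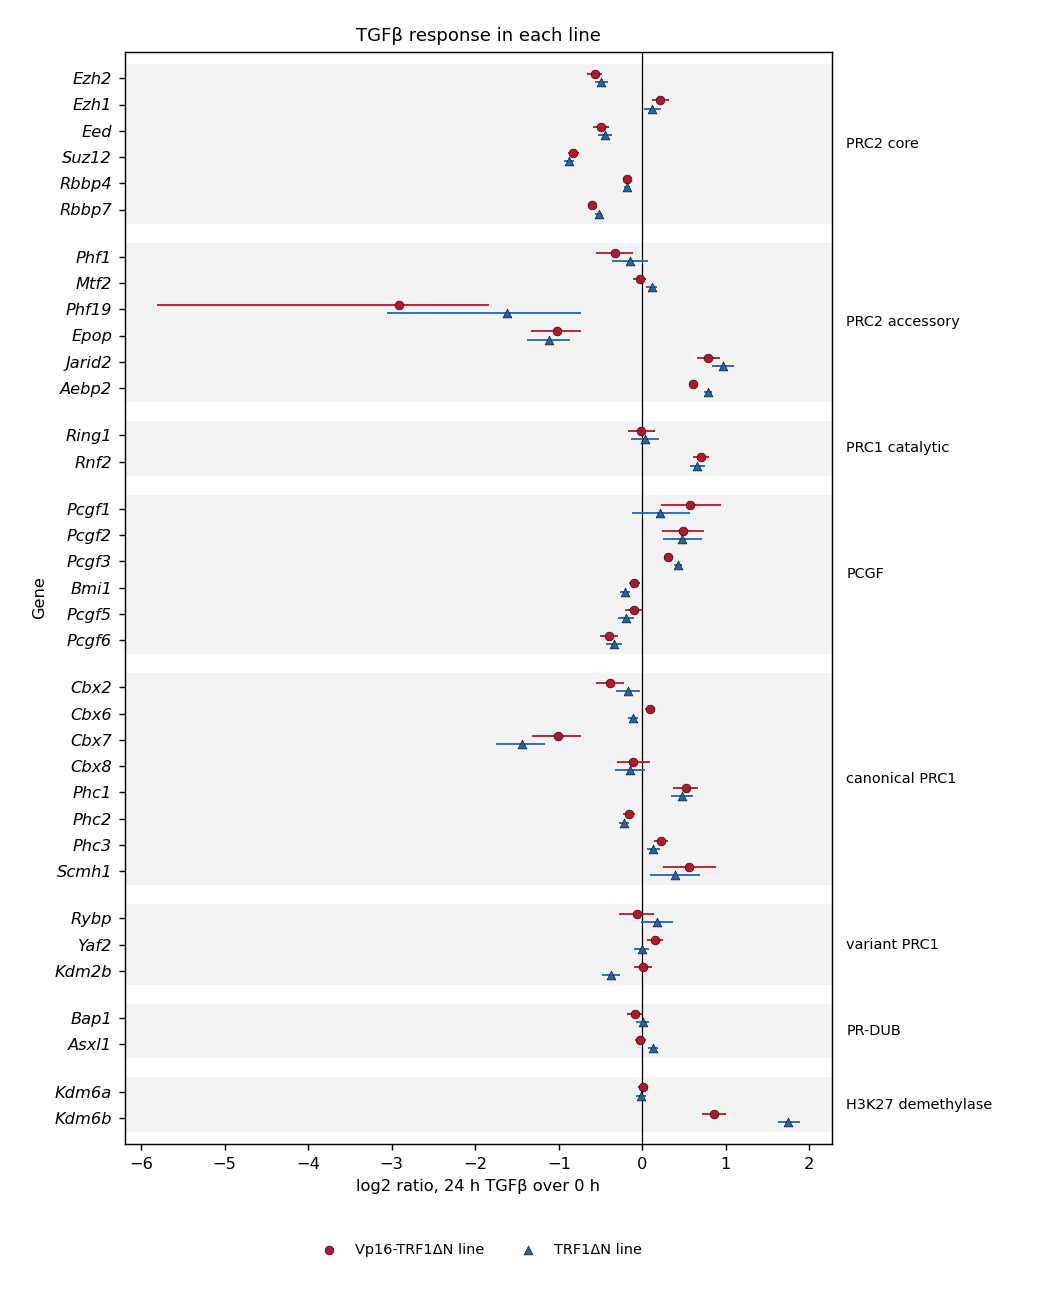
log2 ratio of 24 h TGFβ over 0 h for each gene in the Vp16-TRF1ΔN line (circles) and the TRF1ΔN line (triangles), with exact 95% counting intervals as bars and genes grouped by role. Suz12, Ezh2, Eed and Rbbp7 lie left of 0 in both lines, Jarid2, Aebp2 and Rnf2 right of it, and Kdm6b is the gene whose symbols lie furthest apart among those with more than 100 counts in every library.

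In PRC1 the catalytic pair moved unequally. Rnf2 (RING1B), the main ubiquitin ligase of the complex, had 2092 and 1619 counts (61.0 and 37.6 CPM) for Vp16-TRF1ΔN cells (24 h, then 0 h) and 2412 and 1728 counts (57.3 and 36.3 CPM) in the TRF1ΔN line. It rose by 0.68 ± 0.07 SE on the log2 scale (adjusted p = 0.00317). Ring1 did not pass, with a log2 change of 0.01 ± 0.09 SE (adjusted p = 0.935). The share of Rnf2 in the summed level per length of the pair was 75.2% (95% counting interval 73.4 to 77.0%) and 65.0% (62.9 to 67.0%) for Vp16-TRF1ΔN cells (24 h, then 0 h) and 76.8% (75.1 to 78.4%) and 68.2% (66.2 to 70.2%) in the TRF1ΔN line.

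Of the 6 Pcgf genes, which define the type of PRC1, 2 rose, 1 fell and 3 did not pass. The shares over all genes tested were 23.1% that rose and 25.4% that fell. Pcgf3 rose by 0.37 ± 0.07 SE (adjusted p = 0.0134) and Pcgf2 (MEL18) by 0.48 ± 0.13 SE (adjusted p = 0.0362), and Pcgf6 fell by 0.37 (SE 0.07, adjusted p = 0.0155), all on the log2 scale. DESeq2's Wald test did not call Pcgf2 (adjusted p = 0.191, range over 6 alternatives 0.0197 to 0.191) or Pcgf6 (adjusted p = 0.0592, range 0.00720 to 0.0592). Bmi1, the best known member of the family, took the largest share of its summed level per length, 44.0% and 47.7% for Vp16-TRF1ΔN cells (24 h, then 0 h) and 39.6% and 45.8% in the TRF1ΔN line. Its own log2 change of -0.15 ± 0.07 SE did not pass (adjusted p = 0.130). Pcgf1 and Pcgf5 did not pass either, with log2 changes of 0.40 ± 0.19 SE and -0.15 ± 0.07 SE.

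Of the 8 genes of canonical PRC1 1 rose and 1 fell, whereas 23.1% of all genes tested rose and 25.4% fell. Cbx7, a chromodomain protein that reads the H3K27 mark, had 138 and 353 counts (4.03 and 8.19 CPM) for Vp16-TRF1ΔN cells (24 h, then 0 h) and 130 and 404 counts (3.09 and 8.48 CPM) in the TRF1ΔN line. It fell by 1.24 on the log2 scale (SE 0.17, adjusted p = 0.00657). Phc1, a scaffold protein that polymerises, rose by 0.50 ± 0.08 SE (adjusted p = 0.00993). Cbx2, Cbx6 and Cbx8 did not pass, with log2 changes of -0.28, -0.01 and -0.13, nor did Phc2, Phc3 and Scmh1, with -0.19, 0.18 and 0.48. Cbx6 took the largest share of the 4 measured Cbx genes per length, 60.9% and 53.4% for Vp16-TRF1ΔN cells (24 h, then 0 h) and 55.5% and 52.4% in the TRF1ΔN line, whereas Cbx7 took 3.49% and 6.63%, and 2.81% and 6.74%.

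None of the 3 genes of variant PRC1 passed. Rybp, Yaf2 and Kdm2b, which brings PRC1 to unmethylated CpG islands, had log2 changes of 0.05 ± 0.12, 0.07 ± 0.08 and -0.19 ± 0.12 SE. Neither did the deubiquitinase Bap1 (-0.04 ± 0.07 SE) or its partner Asxl1 (0.05 ± 0.07 SE). Over the 20 members that did not pass, log2 changes ran from -0.28 to 0.48 and adjusted p from 0.0670 to 0.935 (edgeR quasi-likelihood test).

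The demethylase pair moved unequally too. Kdm6b (JMJD3), known as an inducible enzyme, had 919 and 638 counts (26.8 and 14.8 CPM) for Vp16-TRF1ΔN cells (24 h, then 0 h) and 1823 and 613 counts (43.3 and 12.9 CPM) in the TRF1ΔN line, and rose by 1.31 ± 0.23 SE on the log2 scale (adjusted p = 0.0122). Kdm6a (UTX) had 3911 and 4907 counts (114 and 114 CPM), and 4430 and 5077 counts (105 and 107 CPM), in the same order, with a log2 change of -0.01 ± 0.06 SE that did not pass (adjusted p = 0.933). Kdm6a was the more abundant gene per length in all 4 libraries. The share of Kdm6b in their summed level per length was 22.1% (95% counting interval 20.8 to 23.3%) and 13.5% (12.6 to 14.5%) in the Vp16-TRF1ΔN line, and 33.2% (31.9 to 34.4%) and 12.7% (11.8 to 13.7%) in the TRF1ΔN line, each time 24 h before 0 h.

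A similar shift stood between the methyltransferase genes. The share of Ezh2 in the summed level per length of Ezh2 and Ezh1 was 53.8% (52.1 to 55.6%) and 66.8% (65.5 to 68.2%) for Vp16-TRF1ΔN cells (24 h, then 0 h) and 61.9% (60.3 to 63.4%) and 71.3% (70.0 to 72.5%) in the TRF1ΔN line. Per length there were thus 1.17 and 2.01 Ezh2 transcripts for each Ezh1 transcript in the Vp16-TRF1ΔN line, and 1.62 and 2.48 in the TRF1ΔN line. The sum of the pair was 12.6 and 15.1 CPM per kilobase, and 12.6 and 15.3 CPM per kilobase, in the same order. These shares carry counting error only and depend on the exon length used.

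**Figure D3:**
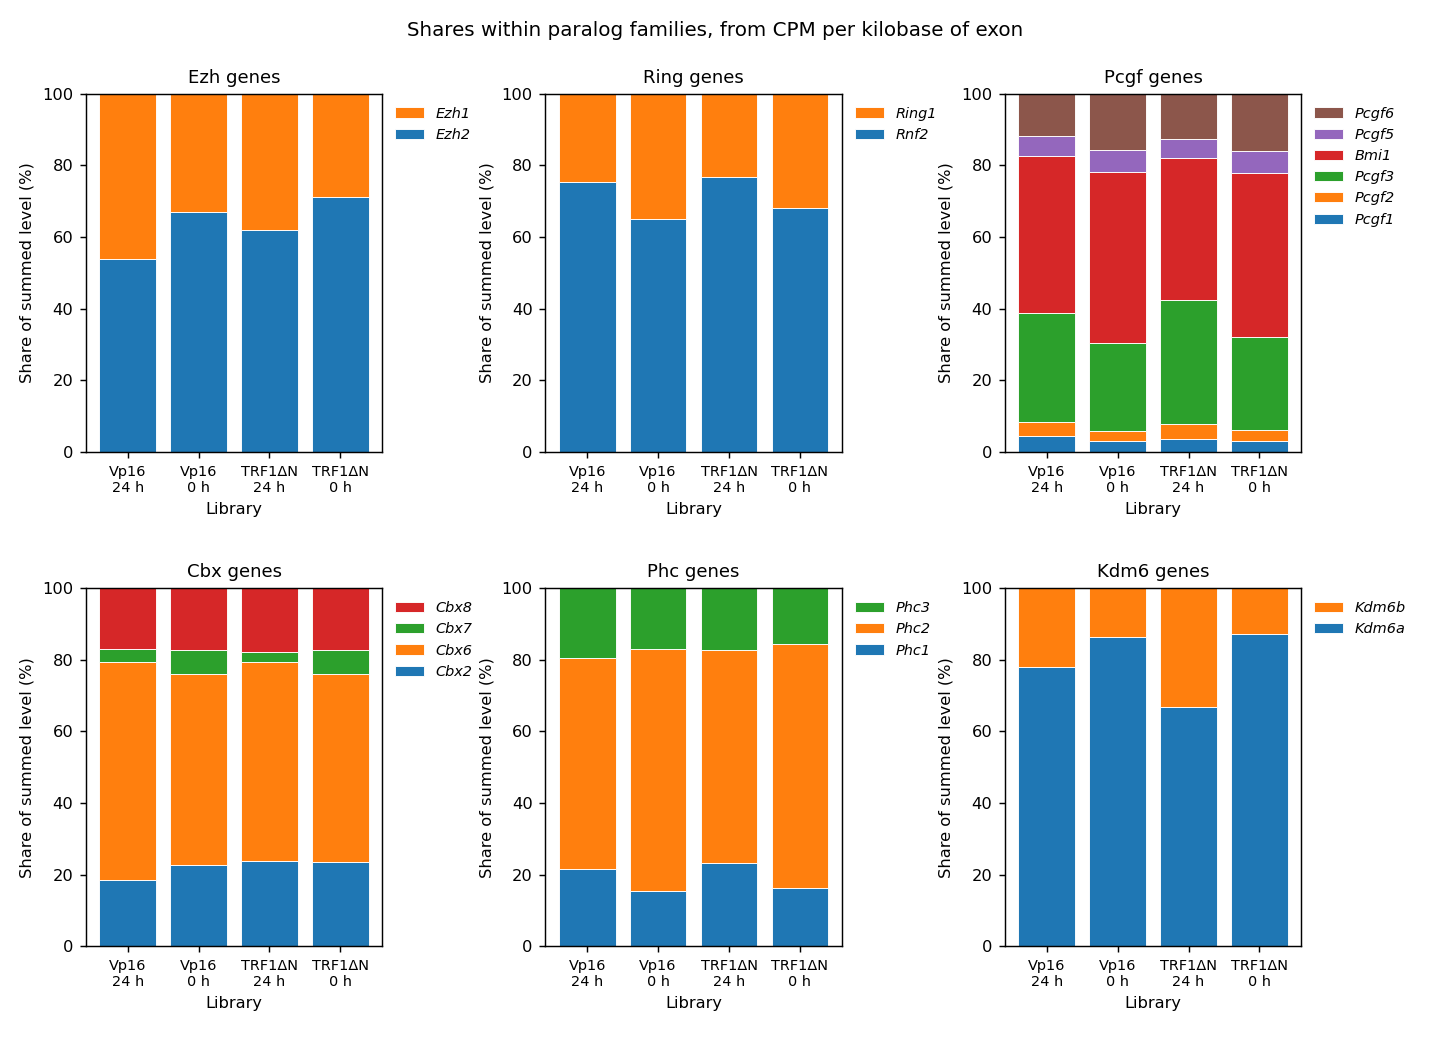
Share of each gene in the summed level of its family (percent, from CPM per kilobase of exon) in the 4 libraries, for the Ezh, Ring, Pcgf, Cbx, Phc and Kdm6 genes. The 24 h bars show less Ezh2 (53.8% and 61.9%) than the 0 h bars (66.8% and 71.3%), and more Kdm6b (22.1% and 33.2%) than at 0 h (13.5% and 12.7%).

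Other proteins that join these complexes were read from a list of 37 genes, of which 31 were tested. Of these 8 rose, 6 fell and 17 did not pass, with a median log2 change of 0.05. Of all genes tested 23.1% rose and 25.4% fell. L3mbtl3, which binds methylated lysines, rose by 1.14 ± 0.08 SE (adjusted p = 0.00152) and Bcorl1, a partner of Pcgf1, by 0.74 ± 0.09 SE (adjusted p = 0.00488). Tfdp1, the partner subunit of E2F factors, fell by 0.88 (SE 0.06, adjusted p = 0.00171), and E2f6, the repressive E2F of a Pcgf6 complex, fell by 0.79 (SE 0.09, adjusted p = 0.00455).

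Each line was also read on its own, as values without a test. Members were counted at a 24 h to 0 h ratio past 1.5-fold in either direction whose 95% counting interval excluded 1. In the Vp16-TRF1ΔN line 4 members were counted as higher (Jarid2, Aebp2, Rnf2 and Kdm6b), against 14.5% of all genes tested, and 5 as lower (Suz12, Rbbp7, Phf19, Epop and Cbx7), against 16.4%. In the TRF1ΔN line the same 4 were counted as higher, against 17.3% of all genes, and 4 as lower (Suz12, Phf19, Epop and Cbx7), against 19.1%. Rbbp7 lay on either side of the threshold, with log2 ratios of -0.60 in the Vp16-TRF1ΔN line and -0.52 in the TRF1ΔN line. Directions were the same in both lines for 26 of the 35 members (74.3%), 11 higher and 15 lower, against 85.9% of all genes tested. All 15 called members had both 24 h libraries on one side of both 0 h libraries, which the additive fit that chose them favours. Such separation was not counted over all genes. It is thus no result about the members, here or where given above for single genes.

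Kdm6b differed most between the responses of the lines among members with more than 100 counts in every library. Its log2 ratio of 24 h to 0 h was 0.86 in the Vp16-TRF1ΔN line (95% counting interval 0.71 to 1.01) and 1.75 in the TRF1ΔN line (1.62 to 1.89), a difference of -0.89 (-1.09 to -0.70). It was the only member whose responses differed at least 1.5-fold with an interval that excluded 0, against 3.33% of all genes tested in that direction. No member did so in the other direction, against 4.36% of all genes. Kdm2b had log2 ratios of 0.01 (-0.10 to 0.12) and -0.38 (-0.49 to -0.27) in the Vp16-TRF1ΔN and TRF1ΔN lines, a difference of 0.39 (0.23 to 0.54). Cbx7 had -1.02 (-1.32 to -0.74) and -1.44 (-1.75 to -1.17), a difference of 0.43 (0.03 to 0.83). None of these differences has a replicate check.

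Between the lines themselves no member was called. The average difference, Vp16-TRF1ΔN over TRF1ΔN, ran from -0.26 to 0.24 on the log2 scale, with a lowest adjusted p of 0.399 (edgeR quasi-likelihood test), and 0% of all 14305 genes tested were called. At an unadjusted p under 0.05 there were 2 members, Ezh1 and Rbbp7, and 1779 of all genes, or 12.4%. DESeq2's Wald test called 46 genes and limma-voom called 0, and neither called a member. Ezh1 differed by 0.23 ± 0.07 SE and Rbbp7 by -0.17 ± 0.06 SE (adjusted p = 0.399 and 0.400).

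Between the lines at each time, a ratio was again counted from 1.5-fold with a 95% counting interval that excluded 1. By this rule 1 member was lower in the Vp16-TRF1ΔN line at 24 h, against 5.24% of all genes tested, and 0 were higher, against 5.87%. Phf19, with 3 and 9 counts, had a log2 ratio of -0.95, but its interval of -3.81 to 0.71 included 0. The member counted was Kdm6b, with a log2 ratio of -0.69 (95% counting interval -0.81 to -0.58) at 24 h and 0.20 (0.04 to 0.36) at 0 h. At 0 h 0 members were counted as higher or lower, against 1.81% and 1.75% of all genes. The median size of the log2 ratio between lines was 0.17 at 24 h and 0.08 at 0 h among the members, against 0.20 and 0.11 among all genes tested. Ezh1 was higher in the Vp16-TRF1ΔN line at both times, by 0.28 (0.18 to 0.38) at 24 h and 0.18 (0.08 to 0.29) at 0 h, and Ezh2 stood at -0.20 (-0.29 to -0.10) and -0.12 (-0.19 to -0.04). The proliferation list had a median of -0.31 between the lines in the additive fit, with 0 genes called, and its part in these values was not tested.

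**Figure D4:**
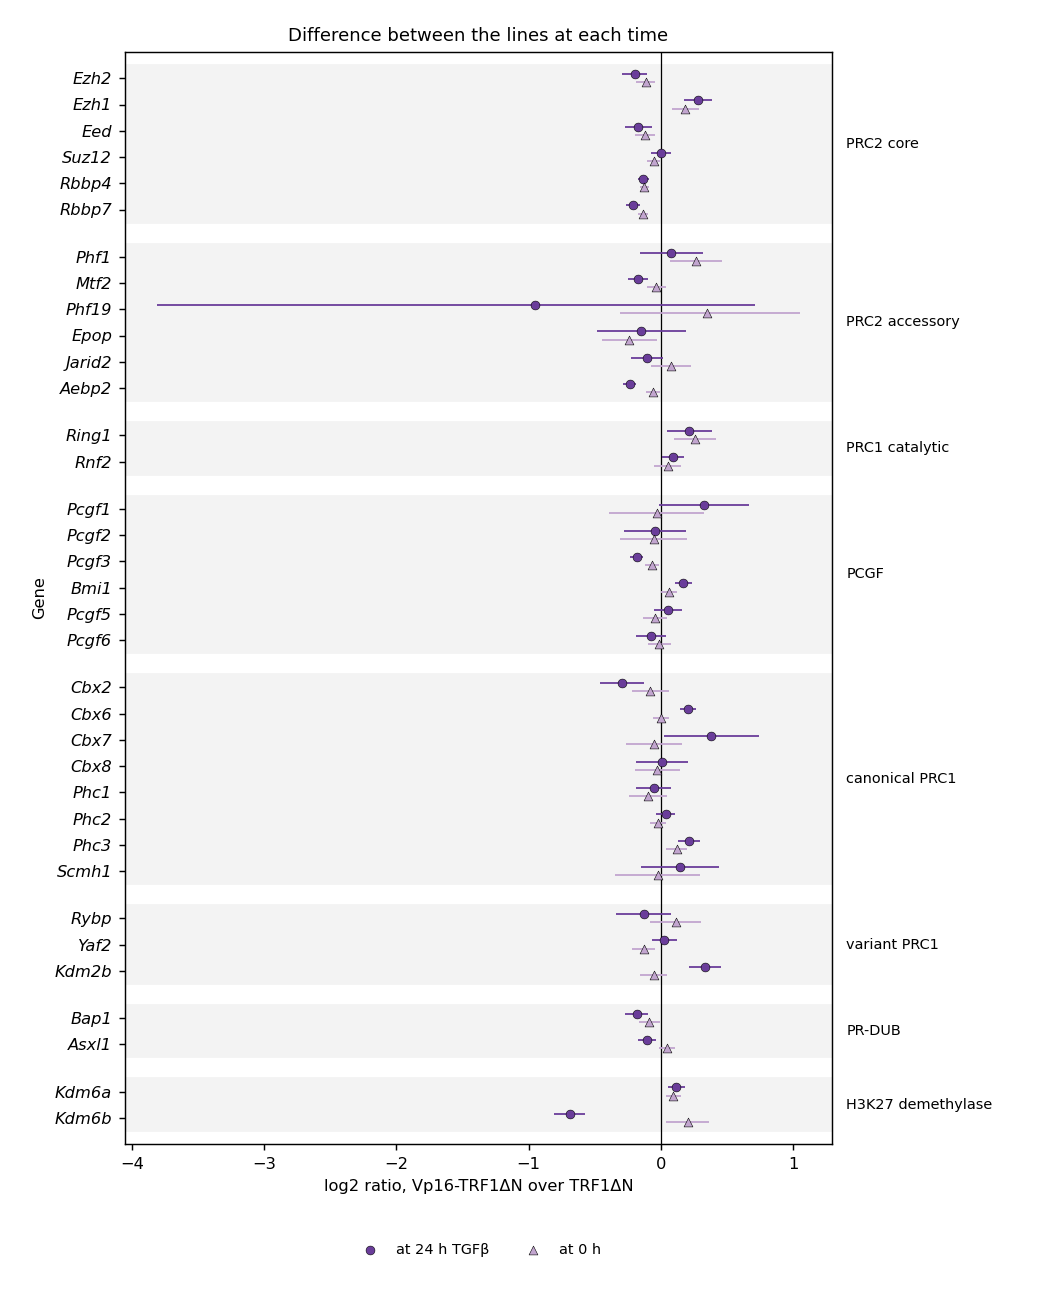
log2 ratio of Vp16-TRF1ΔN over TRF1ΔN for each gene at 24 h TGFβ (circles) and at 0 h (triangles), with exact 95% counting intervals as bars and genes grouped by role. Kdm6b stands at -0.69 at 24 h and 0.20 at 0 h, and the long bar of Phf19 at 24 h reflects its 3 and 9 counts.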

How the data were processed

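The authors deposited 2 tables for the 4 libraries. One holds raw counts per gene, per the file headers and the values. The other holds normalized log2 values, which equal log2 of 1 plus the size-factor-scaled deposited count, and it served as an alternative. Per the submitters' processing notes, FastQC, STAR, HTSeq and DESeq2 were used with build mm10, but their versions, the annotation release and the strandedness of counting were not stated.

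Symbols and exon lengths came from GENCODE M21 (GRCm38, the same build as mm10) and matched 21889 of 21971 gene rows. The 4 construct rows (0.0129% to 0.0582% of counts) stayed out of library sizes and tests. Counts were scaled by TMM factors and tested with edgeR 4.0.16 (glmQLFit, glmQLFTest, two-sided, Benjamini-Hochberg over all 14305 genes that passed filterByExpr) in an additive model of line and time. Its 1 residual degree of freedom measures how far the lines respond differently, and the SE is the log2 change divided by the root of F. Nothing says that libraries came from separate cultures, so p-values measure only the spread between these samples. That spread was moderated by borrowing from all genes tested, with 3.39 prior degrees of freedom. The fit was tested on simulated data, where with few genes changed the share of false calls was above the nominal rate of the adjusted p. In the data 48.5% of genes were called with TGFβ, so the simulation does not give the share of false calls there. Calls near the threshold may be less firm than their adjusted p states.

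Log2 ratios between 2 libraries used a prior count of 2, whereas the ratios of Phf19 that are not on the log2 scale used none. Both kinds had exact conditional (Clopper-Pearson) 95% intervals without a prior count, and differences of responses used Poisson variances. Intervals cover counting error only. Levels per length are CPM per kilobase of the union of annotated exons. Members called with a log2 change of at least 0.5, and Ezh2, Ezh1, Eed, Suz12, Kdm6a and Kdm6b whatever their values, are given with counts in every library; the rest by ranges and test values. Of other lists up to 2 called genes per direction are named. The members, lists and rules were chosen with earlier results of these data known. Alternatives were DESeq2 1.42.0 (Wald test), limma 3.58.1 (voom), RLE scaling, no filter, a mean of at least 1 CPM, no mitochondrially encoded genes, a prior count of 0.5 and transcript length.

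Near-identical copies were sought with BLAST+ 2.17.0 (at least 95% identity over 200 bases). Gm5946 resembles Bmi1 (97.0%, at most 61 counts), and the other copies with a row had at most 8 counts. Genes on the opposite strand, chiefly Tmed5 and Rnf34, overlap 6.93% of the exon bases of Mtf2 and 7.60% of those of Kdm2b. Called members overlap such genes too. Txlng (up to 696 counts) overlaps 5.98% of the exon bases of Rbbp7, and Trmt1l (up to 1522 counts) 3.83% of those of Rnf2. Apobec3 (up to 2523 counts) overlaps 1.54% of those of Cbx7, itself a gene of low counts. The part of these overlaps in the counts was not tested.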

Additional observations from a re-analysis of the deposited data

Results flagged for a closer look

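Of 9 members with opposite directions in the lines, Cbx6 was the only one whose 95% counting intervals excluded 0 in both, which is why it is listed here. Its log2 ratio of 24 h to 0 h was 0.0925 in the Vp16-TRF1ΔN line (95% counting interval 0.03 to 0.15) and -0.11 in the TRF1ΔN line (-0.17 to -0.05), from 3941 and 4649 counts, and 4202 and 5137 counts, at 24 h and 0 h. Both ratios are small, each rests on 1 library per group, and the difference was not tested.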

How the results depend on the processing

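The counts of members called with TGFβ stayed within 1.5 times of 7 higher and 8 lower under all 6 alternatives (6 to 8 higher, 7 to 8 lower), and the 0 members called between the lines stayed at 0, whereas over all genes that comparison gave 0 calls with edgeR, 46 with DESeq2, 109 without a filter and 4 without mitochondrially encoded genes. Of 209 single-gene TGFβ values under alternatives 205 kept their direction and side of the threshold. Signs turned only in members not called: without mitochondrially encoded genes in Ring1 for TGFβ (-0.0112, against 0.0103) and between the lines in Pcgf5 (-0.0068) and Phc2 (-0.0052), and with DESeq2 between the lines in Phf19 (-0.33). DESeq2's Wald test lost Pcgf2 and Pcgf6, and without a filter on low counts Scmh1 was called (adjusted p = 0.0447, range over 6 alternatives 0.0447 to 0.322). Phf19 could not be tested at a mean of at least 1 CPM. The counts of members past 1.5-fold within lines and between lines stayed within 1.5 times under other scaling, a prior count of 0.5 and the authors' log2 values, and those between responses under other scaling and a prior count of 0.5. Shares within families moved with the length used: with the longest annotated transcript in place of the union of exons, the mean share over the 4 libraries was 70.1% in place of 63.5% for Ezh2, 38.4% in place of 30.1% for Rbbp4, 86.0% in place of 83.0% for Mtf2, 37.0% in place of 44.3% for Bmi1, 61.0% in place of 55.5% for Cbx6, 68.7% in place of 63.5% for Phc2 and 83.9% in place of 79.6% for Kdm6a. No paired analysis was possible because each group had 1 library and the labels give no replicate numbers, and leaving out a library would leave no residual degree of freedom. At these depths Phf19 had the lowest counts, and every other member had at least 123 counts in each library. Low counts also limited the test of other members. The SE of the TGFβ log2 change was 0.19 for Pcgf1 and 0.16 for Scmh1, against 0.07 for Pcgf3, which has far more counts.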

Other observations

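Textbook targets of Polycomb silencing were mostly rare in these cells. Of 58 listed genes, among them the Hox clusters, 31 had a row and 17 were tested. With TGFβ 1 rose and 2 fell, whereas 23.1% of all genes tested rose and 25.4% fell. Cdkn2b, which encodes the cell cycle inhibitor p15 and is also a known target of TGFβ itself, had 3931 and 1934 counts for Vp16-TRF1ΔN cells (24 h, then 0 h) and 5445 and 1920 counts in the TRF1ΔN line, and rose by 1.52 ± 0.10 SE on the log2 scale (adjusted p = 0.00148, edgeR quasi-likelihood test). The thyroid and kidney transcription factor gene Pax8 had 8 and 86 counts, and 9 and 115 counts, in the same order, and fell by 3.29 (SE 0.30, adjusted p = 0.00265). Cdkn1c, the gene of p57, had 7 and 34 counts, and 3 and 14 counts, and fell by 1.96 (SE 0.41, adjusted p = 0.0200). Cdkn2a, a classical target next to Cdkn2b, had 496 and 577 counts, and 614 and 605 counts, and did not pass (log2 change 0.16, adjusted p = 0.237).

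Of 9 tested genes of the MLL3/4 complexes in which Kdm6a works, and of the acetyltransferases of H3K27, 1 rose and 3 fell. The shares over all genes tested were 23.1% and 25.4%. Dpy30 fell by 0.95 (SE 0.08, adjusted p = 0.00225) and Paxip1 by 0.89 (SE 0.07, adjusted p = 0.00207), whereas Kmt2d, the MLL4 enzyme, rose by 0.35 ± 0.10 SE (adjusted p = 0.0409).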
